A study of Mus musculus with 16 samples.

Results

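miR-155-5p (mmu-miR-155-5p), a microRNA (miRNA, a short RNA that represses messenger RNAs) of activated macrophages, was followed across 16 arrays. The RNA came from RAW264.7 cells, a mouse line with macrophage properties. The miRNA was taken by its name in the scanner files and is 1 of 1247 mouse miRNAs on the array, read by 2 probes of 20 spots each, 40 spots per array. Cultures spent 48 h in plain medium or with IL-4 plus IL-13 (interleukins of the Th2 response, 10 ng/ml), were washed, and then received either no stimulus or interleukin-33 (IL-33, 20 ng/ml) over the last 4 h. The groups are named Media (neither), Th2 (Th2 cytokines alone), Media_IL33 (IL-33 alone) and Th2_IL33 (both). Each group holds 4 arrays, from 4 independent experiments, with replicate numbers 1 to 4. Arrays of different groups with the same number were taken as 1 experiment. All arrays come from 1 cell line, so the errors given here are those of repeated cultures. The series asks how an allergic cytokine environment alters the response of macrophages to an inflammatory stimulus.

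miR-155-5p is cut from the noncoding transcript Mir155hg (also called Bic). In macrophages its transcription is switched on through Toll-like receptors and IL-1 family receptors, by way of the adaptor MyD88 and the transcription factors NF-kB and AP-1. IL-33 is an IL-1 family cytokine, released by damaged barrier cells, whose receptor ST2 also signals through MyD88. Known targets of miR-155-5p include Socs1, a brake on cytokine receptor signalling, and Inpp5d (SHIP1), a phosphatase that limits phosphoinositide signalling, as well as Cebpb, a transcription factor used in alternative activation by IL-4 and IL-13. None of these messenger RNAs was measured on the arrays.

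The miRNA, its partner strand, their hairpin and the array's probes are shown because the probes decide which part of the molecule was measured. Mature and hairpin sequences are those of RefSeq (build GRCm38.p6). The hairpin lies on the plus strand of chr16:84714140-84714204, which is inside the Mir155hg gene (chr16:84713023-84715245), 1117 bases from that gene's first base. miR-155-5p itself is chr16:84714143-84714165. Capitals mark bases 2 to 8, the seed that pairs with targets, in the mature strands, and the mature arms in the hairpin.
miR-155-5p: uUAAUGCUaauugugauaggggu
miR-155-3p: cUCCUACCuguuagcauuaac
hairpin: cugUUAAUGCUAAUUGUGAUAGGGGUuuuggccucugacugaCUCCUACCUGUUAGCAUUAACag
probe of 17 bases: acccctatcacaattag
probe of 18 bases: acccctatcacaattagC

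The probes are the reverse complement of bases 7 to 23 and 6 to 23 of miR-155-5p, so they differ in 1 base, the capital C. They cover 2 and 3 of the 7 seed bases. Of 1679 mature names in the RefSeq table, no other contains either target, and the longest run it shares with another miRNA is 8 bases. No other miRNA of the table shares bases 2 to 8 with miR-155-5p, so no seed family is set beside it. The table holds 1031 of the 1247 names on the array, and the seeds of the others were not compared.

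Signals are given as relative signal, the summed intensity of a miRNA's probes divided by a scaling value of the array, so that a relative signal of 1 equals it. That value is the 75th percentile of the 178 miRNAs found on every array. Between 206 and 256 miRNAs were detected on an array, and the scaling value lay between 427 and 654 intensity units. The arrays lay on 2 slides. Slide 1 holds 3 Media, 3 Th2, 2 Media_IL33 and 0 Th2_IL33 arrays, and slide 2 holds 1, 1, 2 and 4. Media 3 had the lowest median correlation with the other arrays of its group (0.874), below Media 1 and 2 (0.920 each) and Th2_IL33 2 (0.945), against 0.968 to 0.991 for the other 12. Of 4 myeloid markers on the array, miR-223-3p, miR-142a-3p and miR-142a-5p were detected on every array, while of 15 markers of other cell types 1, the muscle miRNA miR-206-3p, was detected on any. The summed relative signal of those 15 was 0.128 to 0.156 in Media, 0.107 to 0.138 in Th2, 0.0953 to 0.147 in Media_IL33 and 0.0588 to 0.117 in Th2_IL33, and its part in the results was not tested.

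miR-155-5p was low without IL-33 and higher with it on every array. In Media its relative signal was 0.0335, 0.0364, 0.0180 and 0.0581 in experiments 1 to 4. In Th2 it was 0.0352, 0.0375, 0.0397 and 0.0545. These values overlap, and both groups straddle the floor of 0.0353, the 1st percentile of detected signals, to which lower values were set before the log2 was taken.

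In Media_IL33 the relative signal was 0.0798, 0.0850, 0.0952 and 0.105. In Th2_IL33 it was 0.187, 0.156, 0.116 and 0.146. Every stimulated array was above every unstimulated one, and every Th2_IL33 array was above every Media_IL33 array, although Th2_IL33 3 (0.116) and Media_IL33 4 (0.105) lay close together. Of tested miRNAs, 14.3% had every Th2_IL33 array above every Media_IL33 array, and all Th2_IL33 arrays lay on slide 2. The share with every Media_IL33 array above every Media array was 2.16%. No such share is given for all stimulated against all unstimulated arrays, or for unscaled or single-probe intensities. The group means were 0.0365 ± 0.0165 (SD, n = 4) in Media, 0.0417 ± 0.00869 in Th2, 0.0913 ± 0.0112 in Media_IL33 and 0.151 ± 0.0292 in Th2_IL33.

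**Figure D1:**
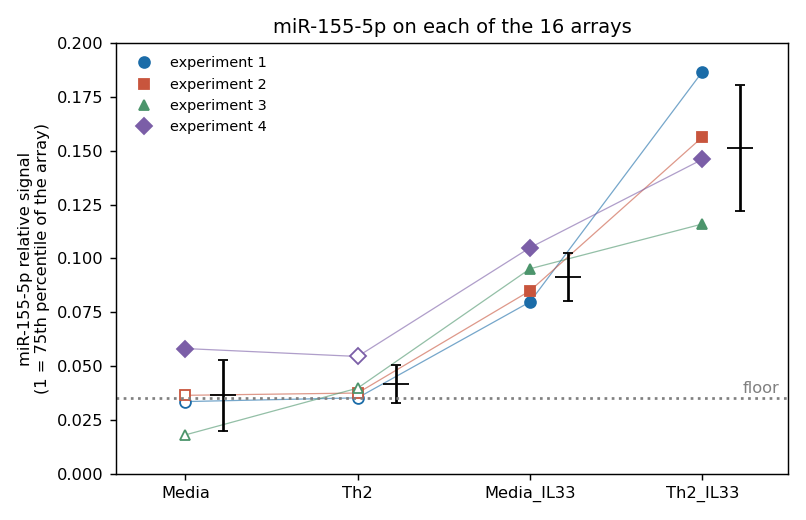
Relative signal of miR-155-5p (y axis, linear, no floor applied) on each array, by group (x axis). Symbols and thin lines mark the 4 experiments, open symbols arrays where the miRNA was not well above background, the dotted line the floor of 0.0353, and black bars the mean ± SD of 4 arrays. The Media and Th2 arrays lie between 0.0180 and 0.0581, the Media_IL33 arrays between 0.0798 and 0.105, and the Th2_IL33 arrays between 0.116 and 0.187.

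The same order stood in the intensities before scaling. The summed intensity of the 2 probes was 11.1 to 32.9 units in Media, 18.9 to 28.4 in Th2, 52.2 to 63.4 in Media_IL33 and 69.0 to 89.3 in Th2_IL33. The scaling value was 596 to 654 units in Media_IL33 and 462 to 636 in Th2_IL33, so scaling widened the gap between those groups, but the unscaled values did not overlap either. In RNA from a whole culture, a rise in all cells and a rise in some of them cannot be told apart.

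The probe of 18 bases gave most of the signal, 71.3% to 85.8% of the sum (median 80.7%). Its mean spot intensity was 16.5, 12.0, 9.31 and 26.5 units on the Media arrays and 14.9, 15.2, 15.7 and 23.7 on the Th2 arrays. It was 43.6, 43.5, 48.0 and 50.1 on the Media_IL33 arrays and 73.0, 76.6, 63.3 and 55.8 on the Th2_IL33 arrays. The groups with and without IL-33 did not overlap, and neither did Media_IL33 and Th2_IL33. The SD between spots of an array was 3.07 to 9.31 units.

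The scanner software marked 12 of 75 spots of that probe as well above background in Media, all of them on Media 4, and 8 of 77 in Th2, all on Th2 4. With IL-33 it marked 72 of 72 and 75 of 75. Counting a probe as above background where at least 50% of its spots are so marked, miR-155-5p was above background on 1 of 4 Media arrays and 0 of 4 Th2 arrays. It was above background on 4 of 4 arrays in each of the other groups, and it met the filter for testing (detected on all 4 arrays of a group) through those groups, being detected on 2 Media arrays and 1 Th2 array. No spot was saturated.

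The probe of 17 bases was dim throughout, with 0 spots well above background on any array, and on each array its mean lay below the 95th percentile of the negative control spots (12.7 to 17.9 units). Its mean intensity was nevertheless 1.75 to 6.40 units in Media and 3.99 to 6.31 in Th2 against 8.60 to 13.3 in Media_IL33 and 10.5 to 13.3 in Th2_IL33, without overlap between arrays with and without IL-33. The Media_IL33 and Th2_IL33 arrays overlapped on it. The higher level with IL-33 is thus seen on both probes, and the further gap between Media_IL33 and Th2_IL33 on the longer one.

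**Figure D2:**
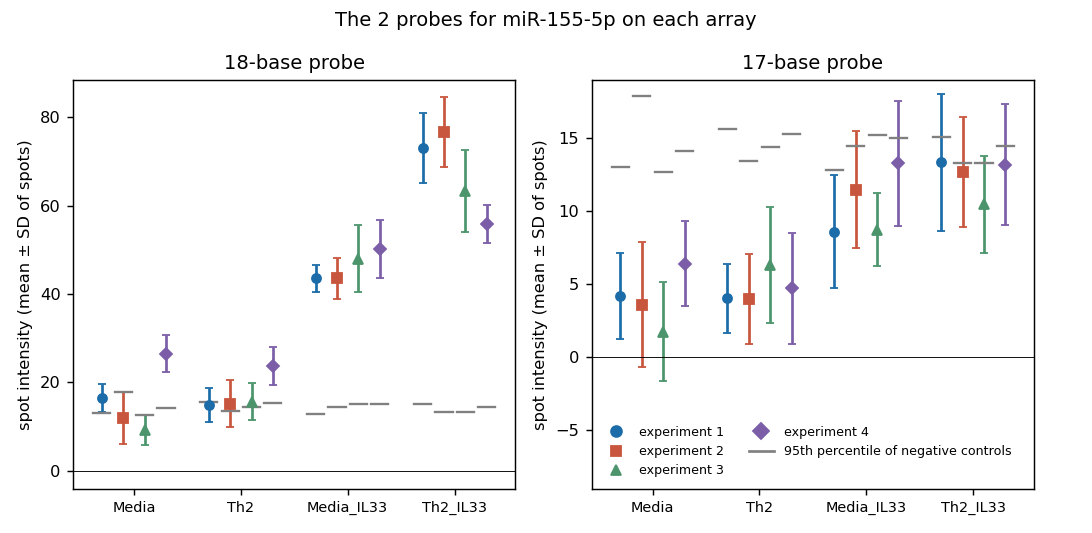
Background-subtracted spot intensity (y axes, of different range) of the 18-base probe and the 17-base probe on each array, by group and experiment. Points and bars are the mean ± SD of the 15 to 20 spots not marked as outliers, and grey dashes the 95th percentile of the negative control spots of the same array. On the 18-base probe the stimulated arrays lie at 43.5 to 76.6 units against 9.31 to 26.5 without IL-33, and on the 17-base probe all means lie under the dashes.

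IL-33 raised miR-155-5p in medium-grown cells. The log2 difference of Media_IL33 minus Media was 1.17 ± 0.19 (SE, 95% interval 0.76 to 1.59), a 2.25-fold increase, with a limma adjusted p of 0.00190 over 231 tested miRNAs, of which 1.73% passed. It rose in 4 of 4 experiments, by 0.0463, 0.0486, 0.0772 and 0.0469 in relative signal. Without the floor the means differed by 0.0548, with an exact two-sided permutation p of 0.0286, the smallest that 4 arrays against 4 allow, and 0.0343 after adjustment over 6 pairs of groups. Every Media_IL33 array was above every Media array, as held for 2.16% of tested miRNAs.

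With the 3 Media arrays that were not well above background set to the lowest such signal of their array, the fold was 1.59, and with normexp background correction the log2 difference was 0.12 (adjusted p = 0.437). That correction adds an offset of 50 intensity units to each spot, more than the mean intensity of either miR-155-5p probe on most arrays. Normexp also ended the call in unfloored relative signal, where no log2 is taken. How far the offset accounts for either loss was not tested. The log2 difference was 1.25 within slide 1 (2 arrays with 3, adjusted p = 0.0634) and 1.22 within slide 2 (2 with 1). It was 0.98 without Media 1, Media 3 and Th2_IL33 2 (adjusted p = 0.0629). Media 2, whose median correlation with its group equalled that of Media 1 (0.920), was kept in that run. Over all alternatives the limma adjusted p ran from 0.000314 to 0.437.

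IL-33 also raised miR-155-5p after growth with Th2 cytokines. Th2_IL33 minus Th2 was 1.86 ± 0.19 on the log2 scale (95% interval 1.44 to 2.27, limma adjusted p = 2.38e-05). Of the 231 tested miRNAs, 1.73% passed. Since 0 of 4 Th2 arrays were above background, Th2 signals under the lowest signal above background of their array were raised to it. The fold was then 2.79. miR-155-5p rose in 4 of 4 experiments, by 0.152, 0.119, 0.0763 and 0.0916 in relative signal. Without the floor the means differed by 0.110 (exact two-sided permutation p = 0.0286, 0.0343 adjusted over 6 pairs). Every Th2_IL33 array was above every Th2 array, as held for 3.9% of tested miRNAs.

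All Th2_IL33 arrays lay on slide 2, where the log2 difference was 1.45 (adjusted p = 0.106) with a single Th2 array, Th2 4, to set against them. With slide as a block it was 1.88 (adjusted p = 0.000504), with normexp background correction 0.41, and the limma adjusted p over all alternatives ran from 5.72e-08 to 0.106.

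Th2 cytokines alone gave no detectable difference in miR-155-5p. Th2 minus Media was 0.030 ± 0.19 on the log2 scale (95% interval -0.38 to 0.44, 0.766-fold to 1.36-fold, limma adjusted p = 0.966), where 9.52% of tested miRNAs passed (8.66% higher, 0.866% lower), and 9.52% had every Th2 array above every Media array. It was higher in 2 of 4 experiments and lower in 1, and in experiment 1 both arrays lay at the floor. The unfloored means differed by 0.00521 (exact two-sided permutation p = 0.600). With most arrays of both groups not above background, a difference below that level would not be seen here. The difference was -0.17 within slide 1 (3 arrays with 3) and 0.63 within slide 2, where it sets 1 Th2 array against 1 Media array at the floor. With slide as a block it was 0.030.

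In the presence of IL-33, cells grown in Th2 cytokines had more miR-155-5p than cells grown in medium. Th2_IL33 minus Media_IL33 was 0.72 ± 0.19 on the log2 scale (95% interval 0.30 to 1.13), a 1.64-fold increase with all 8 arrays above background (limma adjusted p = 0.0246, where 9.52% of tested miRNAs passed, 8.23% higher and 1.3% lower). The ratio of the arrays of an experiment was 2.34, 1.84, 1.22 and 1.39 in experiments 1 to 4, above 1 in 4 of 4. Unfloored means differed by 0.0601 (exact two-sided permutation p = 0.0286, 0.0343 adjusted over 6 pairs), and 14.3% of tested miRNAs had every Th2_IL33 array above every Media_IL33 array.

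On the 18-base probe alone this difference was 0.76 (limma adjusted p = 0.000875). Within slide 2 (4 arrays with 2) it was 0.86 (adjusted p = 0.0458), with slide as a block 0.73 (0.0498), and with a block for experiment 0.72 (0.0139). The call did not hold with quantile normalization (0.56, adjusted p = 0.0529), the authors' value table (0.74, 0.0901), a percentile over all miRNAs (0.68, 0.117), a floor lower by 1 on the log2 scale (0.72, 0.143) or the scanner software's total gene signal (0.65, 0.270). It also ended without Th2_IL33 1 (0.61, adjusted p = 0.0968), 2 (0.69, 0.0689) or 4 (0.73, 0.0549) or Media_IL33 1 (0.66, 0.0848) or 2 (0.69, 0.0791), and the adjusted p over all alternatives ran from 0.000414 to 0.270.

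Ordered by mean, the groups ran Th2_IL33, Media_IL33, Th2, Media. The first 2 neighbours differed by 0.72, as above. The next, Media_IL33 minus Th2, differed by 1.14 ± 0.19 (limma adjusted p = 0.000750, 12.1% of tested miRNAs passed, 3.46% higher and 8.66% lower). Since no Th2 array was above background, Th2 signals were again raised as above, and this difference was then 1.70-fold. Within slide 2 (2 arrays with 1) that difference was 0.60 (adjusted p = 0.498), and within slide 1 (2 with 3) it was 1.42. The last neighbours, Th2 and Media, did not differ beyond their spread. From one end to the other, Th2_IL33 minus Media was 1.89 ± 0.19, a 3.70-fold increase (limma adjusted p = 3.23e-06, 10.4% passed, 9.52% higher and 0.866% lower). Every Th2_IL33 array was above every Media array, as held for 10.8% of tested miRNAs, and every Media_IL33 array above every Th2 array, as held for 9.52%. That fold was 2.62 with the 3 dim Media arrays set to the lowest signal above background. These comparisons share groups of arrays, so their values are not independent of each other.

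**Figure D3:**
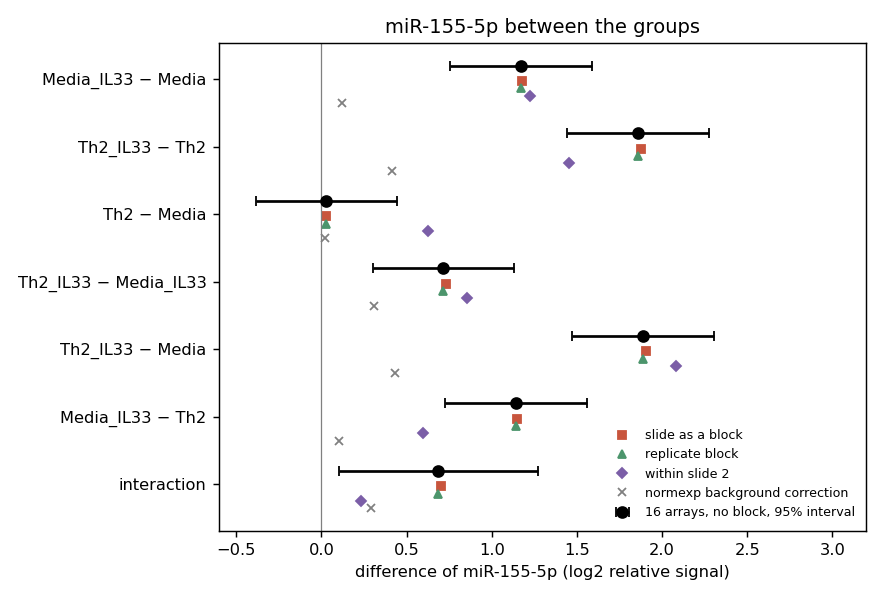
Log2 difference of miR-155-5p (x axis) for each pair of groups and for the interaction (rows). Black points with bars are the estimate from 16 arrays and its 95% interval, coloured symbols the same difference with slide or experiment (replicate) as a block or within slide 2, and crosses the values after normexp background correction with its offset of 50 units. The IL-33 rows lie at 1.17 and 1.86, Th2 minus Media at 0.030, and the crosses lie nearer to 0 than the black points in every row.

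Whether growth in Th2 cytokines altered the IL-33 response of miR-155-5p was tested directly by the interaction, which subtracts the IL-33 difference of medium-grown from that of Th2-grown cells. It was 0.69 ± 0.27 (95% interval 0.10 to 1.27), with an unadjusted limma p of 0.0246, and it did not pass after adjustment (limma adjusted p = 0.995). Of the 231, 0 passed and 5 had an unadjusted p under 0.05. That lower floor brought the interaction to 0.43, since Media arrays below the floor then lie lower and the IL-33 difference in medium-grown cells becomes 1.43. Within slide 2 it was 0.23, and with array weights 1.25 (adjusted p = 0.0158), where the adjusted p over all alternatives ran from 0.0158 to 0.999.

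On the linear scale the increase with IL-33 was 0.0548 ± 0.0150 (SD, n = 4 experiments) in medium-grown cells and 0.110 ± 0.0331 in Th2-grown cells. The ratio of the increments within an experiment was 3.27, 2.45, 0.988 and 1.95, so that experiment 3 showed no larger increment with Th2 cytokines while the other 3 did. The increments differed by 0.0548, with an exact two-sided permutation p of 0.0571 where 0.0286 is the smallest possible. Paired by experiment it was 0.25. Of 10 alternatives 8 did not pass, nor did 14 of the 16 tests that left out 1 array, and p ran from 0.0286 to 0.25 over them. It was 0.0286 on the 18-base probe alone (0.0495), with the median of spots (0.0526), and without the Th2 or the Th2_IL33 array of experiment 3, either of which removes only that experiment's Th2-grown increment (0.0659).

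The list of inflammatory miRNAs, induced through Toll-like or IL-1 family receptors or being their strand or cluster partners, has 23 members on the array, of which 13 were tested. With IL-33 in medium-grown cells 4 of the 13 rose and 0 fell, where 1.73% of all tested miRNAs rose, with a median log2 difference of 0.51 against 0.023 over all tested miRNAs. Besides miR-155-5p these were miR-21a-3p (1.93, adjusted p = 0.000252), the partner strand of the growth-related miR-21a-5p, and miR-146a-5p (1.08, 0.000804) and miR-146b-5p (0.95, 0.0319), which repress the MyD88 pathway components Irak1 and Traf6. With IL-33 in Th2-grown cells 4 of the 13 rose and 0 fell, again beside 1.73% of all tested (median 0.42 against 0.0015). They were miR-155-5p, miR-21a-3p (1.43, 0.00366), miR-146a-5p (0.90, 0.00366) and miR-222-5p (0.82, 0.0338), partner strand of miR-222-3p. In each comparison the 4 list members that rose were all the tested miRNAs that rose, so the 1.73% is made up of list members. The list was drawn up with earlier results of these arrays known. It is no independent evidence of direction, or that rises gather among inflammatory miRNAs.

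Of the other 4 miRNAs, miR-222-5p had the higher estimate after Th2 growth (0.65 in medium-grown cells, which did not pass, and 0.82). The estimate was lower after Th2 growth for miR-21a-3p, miR-146a-5p and miR-146b-5p, with interactions of -0.50, -0.17 and -0.52, against 0.18 for miR-222-5p and 0.69 for miR-155-5p. None of these interactions passed (limma adjusted p = 0.995 each). With Th2 cytokines in the presence of IL-33, miR-21a-3p (0.083) and miR-146a-5p (0.13) did not pass, while miR-146b-5p rose (0.95, adjusted p = 0.00741), as it did without IL-33 (1.47, adjusted p = 0.000184).

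**Figure D4:**
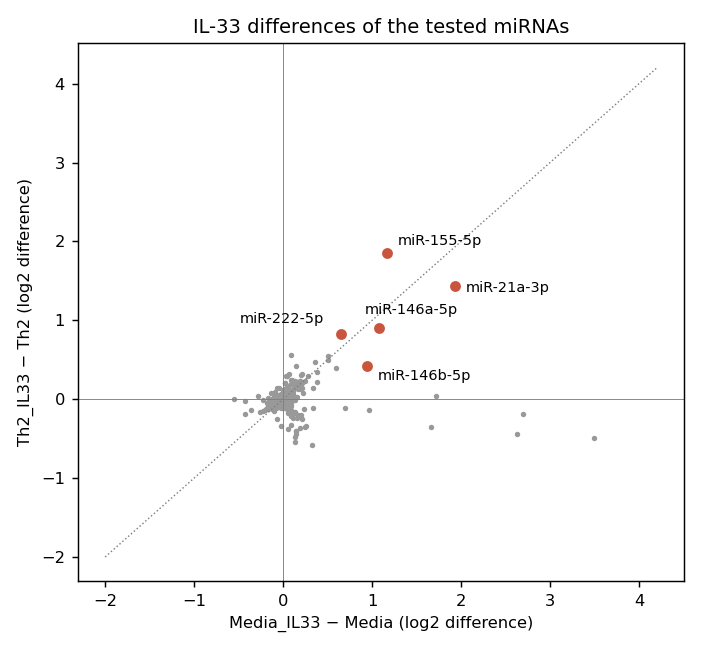
Log2 difference with IL-33 in medium-grown cells (x axis) and in Th2-grown cells (y axis) for each of the 231 tested miRNAs, with the line of equal differences dotted. Red points passed the limma threshold in at least 1 of the comparisons. miR-155-5p (1.17 and 1.86) and miR-222-5p (0.65 and 0.82) lie above the line, and miR-21a-3p (1.93 and 1.43), miR-146a-5p (1.08 and 0.90) and miR-146b-5p (0.95 and 0.42) below it.

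Of 9 miRNAs associated with alternative activation on the array, 6 were tested. With Th2 cytokines 5 of the 6 rose without IL-33 (median 1.17 against 0.063 over all tested miRNAs, of which 8.66% rose) and 5 with it (median 1.14 against 0.080, 8.23% rose), and 1 did not pass. With IL-33 0 of 6 passed limma's threshold in either growth condition, which is near the 1.73% of all tested miRNAs that did. Among them miR-378a-3p, encoded within Ppargc1b (a coactivator of oxidative metabolism), differed by 1.07 and 1.19 with Th2 cytokines without and with IL-33 (adjusted p = 0.000254 and 8.79e-05), where miR-155-5p differed by 0.030 and 0.72. miR-342-3p differed by 1.21 in both (0.00217 and 0.00253). The largest differences that passed were those of miR-511-3p (2.73 and 2.81, limma adjusted p = 8.18e-12 and 5.23e-12), which lay at the floor on all arrays of medium-grown cells. miR-223-3p (1.13 and 1.08) and let-7c-5p (0.65 and 0.70) also passed in both. The member that did not pass was miR-378a-5p, the partner strand of miR-378a-3p (2.20 and -0.69).

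The pattern most like that of miR-155-5p over the 16 arrays was that of miR-21a-3p, with a Pearson r of 0.91 between log2 relative signals (Spearman rho 0.91). It was followed by miR-146a-5p (0.83), miR-222-5p (0.82), miR-125a-5p (0.77) and miR-21a-5p (0.67), while the median r over the other 230 tested miRNAs was 0.098. The points share arrays and scaling, and r here describes likeness only. Part of it is the step with IL-33. After each group's mean was subtracted, r was 0.75 for miR-21a-3p, 0.66 for miR-21a-5p and 0.62 for miR-125a-5p, but 0.091 for miR-222-5p and -0.22 for miR-146a-5p. Such values were not particular to these miRNAs. After the same subtraction r was 0.68 for miR-5100 and 0.67 for miR-182-5p, whose r over the 16 arrays was -0.023 and -0.056.

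The sequences of 4 of these 5 are shown to compare their seeds with that of miR-155-5p, with bases 2 to 8 in capitals (RefSeq, GRCm38.p6). All differ from it and from each other.
miR-21a-3p: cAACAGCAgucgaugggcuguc
miR-146a-5p: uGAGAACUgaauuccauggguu
miR-125a-5p: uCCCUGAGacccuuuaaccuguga
miR-21a-5p: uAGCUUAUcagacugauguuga

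Group levels are given for the 3 most like it. miR-21a-3p went from 0.0511 ± 0.0284 (SD, n = 4) in Media to 0.0825 ± 0.0246 in Th2, 0.206 ± 0.0327 in Media_IL33 and 0.217 ± 0.0289 in Th2_IL33, so the last 2 groups lay together where those of miR-155-5p lay apart. miR-146a-5p had 0.231 ± 0.0336, 0.287 ± 0.0512, 0.484 ± 0.0568 and 0.533 ± 0.0798 in the same order. miR-222-5p had 0.0932 ± 0.0206, 0.112 ± 0.0237, 0.144 ± 0.0166 and 0.196 ± 0.0229, the closest of these 3 in the step from Media_IL33 to Th2_IL33 (log2 difference 0.45, limma adjusted p = 0.201).

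**Figure D5:**
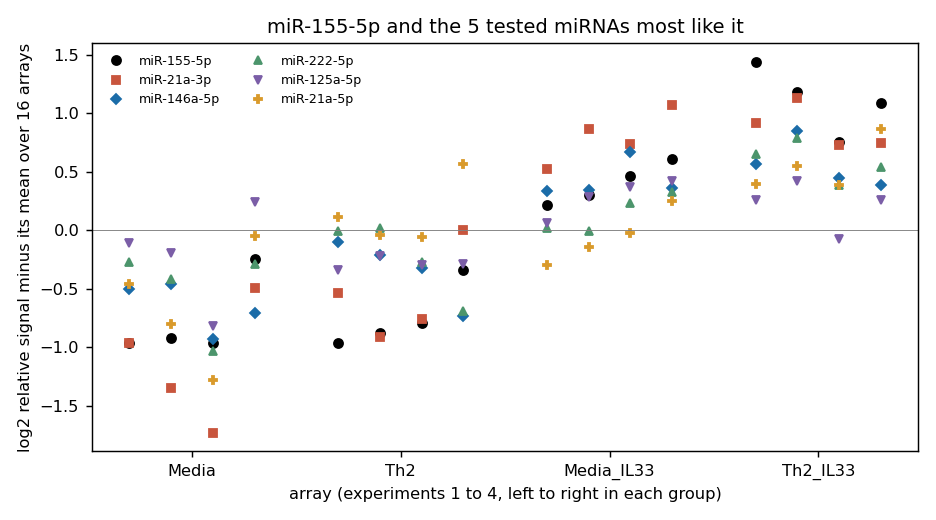
Log2 relative signal of miR-155-5p and of the 5 tested miRNAs most like it, minus each one's mean over 16 arrays (y axis), for the arrays of each group with experiments 1 to 4 from left to right (x axis). miR-155-5p has the highest point of the 6 on each Th2_IL33 array.

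miR-155-3p, the partner strand cut from the other arm of the same hairpin, was not detected on any of the 16 arrays and has no tested difference. Its 2 probes of 18 and 19 bases had 0 spots well above background, and its relative signal was -0.0187 to -0.00790, below 0 after background subtraction. A rise of this strand with IL-33 was therefore not detectable here, and its level beside that of miR-155-5p cannot be given, since probes of different sequence are not compared.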

How the data were processed

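Per the labels, total RNA of 16 cultures was labelled with Cy3 and hybridised to single-colour Agilent mouse miRNA arrays. Per the file headers, Agilent Feature Extraction 10.7.3.1 gave the deposited spot intensity, with background and spatial trend subtracted and no normalization between arrays. The authors' deposited value table holds quantile normalized intensity on the linear scale. Partek 6.6 and RMA are named in the submitters' processing notes. Outlier spots were left out, spots averaged, and probes of a miRNA summed. Sums were scaled to the 75th percentile of 178 miRNAs detected throughout, floored at 0.0353 and log2 transformed. limma 3.58.1 (R 4.3.3) was fitted with 1 mean per group to the 231 miRNAs detected on all 4 arrays of a group, with Benjamini-Hochberg adjustment within each comparison and a threshold of 0.05. The fit was tested on simulated data. Errors of log2 differences are SE, and those of group means SD. Exact permutation tests used unfloored relative signal.

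The labels give replicate numbers, and arrays with the same number were taken as 1 experiment, a matching that the labels do not state. Deviations from group means correlated with a median r of 0.11 between arrays of 1 experiment (24 pairs) and -0.048 otherwise (72 pairs). Named miRNAs are miR-155-5p and miR-155-3p, the 5 most correlated with miR-155-5p, and list members past the threshold, up to 4 per comparison. A few others are named beside them for contrast. The member, lists and tests were chosen with earlier results of these data known. The number of arrays limits precision.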

Additional observations from a re-analysis of the deposited data

Results flagged for a closer look

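On the 18-base probe the relative signal of Th2 4 was 0.0454, far from the other Th2 arrays at 0.0277 to 0.0297. Its gap to the nearest of them was 0.889 of the group's range, above Dixon's 95% critical value for 4 arrays, which chance exceeds in about 1 of 20 groups. It was 1 of 16 such groups of values examined for the probes and strands of miR-155. Without Th2 4 the difference of Th2 minus Media in miR-155-5p was -0.11 on the log2 scale.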

How the results depend on the processing

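Over 380 recomputed values, 325 kept their direction and side of the threshold, 37 lost a call, 5 gained one and 13 reversed. All reversals were of Th2 minus Media, whose threshold was never passed, and the combined difference (Th2_IL33 minus Media) kept its limma call under every alternative run. The causes were not tested. Of the 8 arrays without IL-33, 7 were not well above background for miR-155-5p, while all 8 with IL-33 were. Within slide 2 Media and Th2 have 1 array each, and all Th2_IL33 arrays lie there, so slide and group cannot be fully told apart. Normexp, which adds an offset of 50 units to each spot, ended calls on the log2 scale. It also ended calls in unfloored relative signal, where no log2 is taken, as given below.

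Media_IL33 minus Media (limma, log2) lost its call with normexp (0.12), the doubled floor (0.36), without Media 1, Media 3 and Th2_IL33 2 together (0.98), within slide 1 (1.25) and within slide 2 (1.22). Th2_IL33 minus Th2 lost it within slide 2 (1.45). Media_IL33 minus Th2 lost it with normexp (0.10), the doubled floor (0.36) and within slide 2 (0.60). Th2_IL33 minus Media_IL33 lost it with the percentile over all miRNAs (0.68), quantile normalization (0.56), the authors' deposited value table (0.74), total gene signal (0.65) and the lower floor (0.72). The interaction gained a call with array weights (1.25). Th2 minus Media was -0.063 with the percentile over all miRNAs, -0.011 with the authors' deposited value table and with the 18-base probe, -0.14 with total gene signal, -0.37 with array weights, -0.16 without those 3 arrays and -0.17 within slide 1.

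In unfloored relative signal, normexp ended the calls of Media_IL33 minus Media (0.0233), Th2_IL33 minus Th2 (0.0806), Th2_IL33 minus Media_IL33 (0.0625), Th2_IL33 minus Media (0.0858) and Media_IL33 minus Th2 (0.0181). Th2_IL33 minus Media_IL33 lost it with the authors' deposited table (0.0651) and the 17-base probe (0.00699), and Th2 minus Media was -0.00620 with total gene signal. The difference of increments passed with the median of spots (0.0526) and the 18-base probe (0.0495). Paired by experiment (replicate block), the differences of 0.0548, 0.110, 0.0601, 0.115 and 0.0495 had an exact permutation p of 0.125, the smallest 4 pairs allow. The replicate block in limma changed no call (1.17, 1.86, 0.030, 0.72 and an interaction of 0.69).

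With each array left out in turn, the limma differences were 1.10 to 1.35 (Media_IL33 minus Media), 1.75 to 1.99 (Th2_IL33 minus Th2), -0.11 to 0.21 (Th2 minus Media), 0.61 to 0.84 (Th2_IL33 minus Media_IL33, not called in 5 of 16), 1.78 to 2.07 (combined), 1.07 to 1.28 (Media_IL33 minus Th2) and 0.51 to 0.82 (interaction). Unfloored differences were 0.0486 to 0.0620 (Media_IL33 minus Media, not called without Media_IL33 4), -0.000955 to 0.0124 (Th2 minus Media), 0.103 to 0.127 (Th2_IL33 minus Media), 0.0978 to 0.121 (Th2_IL33 minus Th2), 0.0450 to 0.0538 (Media_IL33 minus Th2, not called without Media_IL33 4), 0.0482 to 0.0718 (Th2_IL33 minus Media_IL33, not called without any one Media_IL33 array) and 0.0409 to 0.0659 (increments). limma on the 17-base probe alone was not run, since it lay at its floor on every array. The fit without a filter kept miRNAs above the floor on at least 1 array.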

Other observations

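Experiment 4 had the highest miR-155-5p of its group in Media, Th2 and Media_IL33 (0.0581, 0.0545 and 0.105 in relative signal), and experiment 1 had the highest in Th2_IL33 (0.187). On the log2 scale the deviations of experiment 4 from the group means were 0.53, 0.41, 0.21 and -0.030 in Media, Th2, Media_IL33 and Th2_IL33, and those of experiment 1 were -0.19, -0.22, -0.19 and 0.32.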
